A study of Mus musculus with 14 samples.

Results

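The genes described here encode the chondroitin sulfate proteoglycans of oligodendrocyte precursor cells (OPCs) and the matrix proteins that bind them. They are Cspg4, Cspg5, Ptprz1, Bcan, Ncan, Vcan, Tnr and Tnc, 8 genes of the 23427 in the expression table. They were taken by gene symbol and not by any measured value, but earlier results of these data were known when they were chosen. RNA sequencing was performed on primary OPCs from the cortex of young wild-type C57BL/6J mice, pooled over pups and captured on dishes coated with an antibody against Pdgfra, the receptor for PDGF-AA. One group was taken at Day0, when the cells were still kept with PDGF-AA, and the other 6 at Day3 of differentiation, which was started by withdrawing PDGF-AA and adding the thyroid hormone T3. The Day3 groups were non-treated cells, cells put through a mock transfection, cells transfected with either of the non-targeting controls NC siRNA#1 and NC siRNA#2, and cells transfected with an siRNA against Secisbp2l (siSbp2l) or against Pdgfra (siPdgfra). Each of the 7 groups had 2 libraries, 14 in all. Secisbp2l encodes Sbp2l, a relative of the protein that binds the selenocysteine insertion element. Every group carried the same wild-type background, and each knockdown rested on an siRNA added to a mixed culture, so cells that took up little siRNA are part of each value.

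In a proteoglycan, long sugar chains are attached to a core protein. OPCs carry the transmembrane core proteins NG2, the product of Cspg4 and a classical marker of OPCs, and neuroglycan C, the product of Cspg5. Ptprz1 encodes a receptor-type tyrosine phosphatase whose extracellular part is, in its secreted form, the proteoglycan phosphacan. Bcan, Ncan and Vcan encode brevican, neurocan and versican, members of the lectican family, which bind hyaluronan at one end and tenascins at the other. Tnr and Tnc encode the tenascins R and C, large matrix glycoproteins. Tenascin-R is known as a product of oligodendrocytes (OLs) and of some neurons, tenascin-C as a product of immature glia. Lecticans and tenascins together build the hyaluronan-based matrix of the brain.

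The promoters are printed first, because the 8 genes moved in different directions. RefSeq entries of the build GRCm38.p6 matched 7 of the 8 genes by symbol. The 250 bases before the annotated start are shown for Cspg4 and Ptprz1, which fell during differentiation, for Bcan and Tnr, which rose, and for Vcan, which was higher in siSbp2l. Capitals mark matches to 6 motifs searched on both strands, namely the E-boxes CAGCTG and CATCTG, the SOX motif AACAAT, the TCF/LEF motif CTTTGA, the thyroid hormone half-site AGGTCA and the GC box GGGCGG.
Cspg4, chr9:56864854-56865103, plus strand: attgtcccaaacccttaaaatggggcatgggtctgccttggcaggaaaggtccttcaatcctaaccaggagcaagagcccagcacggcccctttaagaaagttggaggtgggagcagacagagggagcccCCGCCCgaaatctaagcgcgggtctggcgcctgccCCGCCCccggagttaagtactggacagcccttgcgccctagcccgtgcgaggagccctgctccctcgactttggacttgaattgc
Ptprz1, chr6:22875252-22875501, plus strand: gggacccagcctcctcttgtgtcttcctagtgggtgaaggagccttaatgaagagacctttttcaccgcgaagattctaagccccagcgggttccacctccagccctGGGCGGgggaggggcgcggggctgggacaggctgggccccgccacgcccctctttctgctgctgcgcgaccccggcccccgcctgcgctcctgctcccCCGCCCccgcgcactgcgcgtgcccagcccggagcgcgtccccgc
Bcan, chr3:88000357-88000606, minus strand: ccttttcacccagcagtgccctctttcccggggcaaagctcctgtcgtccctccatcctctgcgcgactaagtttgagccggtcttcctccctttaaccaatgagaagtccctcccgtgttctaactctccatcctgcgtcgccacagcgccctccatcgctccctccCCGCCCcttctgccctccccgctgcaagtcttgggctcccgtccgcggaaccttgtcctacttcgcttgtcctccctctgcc
Tnr, chr1:159523519-159523768, plus strand: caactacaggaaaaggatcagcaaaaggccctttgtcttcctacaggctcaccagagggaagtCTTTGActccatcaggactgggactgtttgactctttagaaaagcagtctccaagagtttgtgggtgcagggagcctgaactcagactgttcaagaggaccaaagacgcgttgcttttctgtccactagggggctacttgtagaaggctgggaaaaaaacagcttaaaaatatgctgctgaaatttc
Vcan, chr13:89742513-89742762, minus strand: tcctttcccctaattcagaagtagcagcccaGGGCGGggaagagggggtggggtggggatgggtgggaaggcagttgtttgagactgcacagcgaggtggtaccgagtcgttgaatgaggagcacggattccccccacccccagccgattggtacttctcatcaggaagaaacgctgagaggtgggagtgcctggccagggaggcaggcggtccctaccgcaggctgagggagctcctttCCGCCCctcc
The GC box stood in the windows of Cspg4, Ptprz1, Bcan and Vcan but not in that of Tnr, and it stood in 7 of the 8 windows of these genes. Tnc has 2 windows, which overlap and hold the same GC box. The GC box is found in 32.7% of 32851 RefSeq promoter windows, which were not matched to these windows in GC content (44.8% to 71.6%). CTTTGA stood in the windows of Tnr and Ncan, 2 of 8, against 13.8% of all windows, and CAGCTG in that of Ncan alone, 1 of 8 against 13.0%. CATCTG and AACAAT had no match in the 8 windows and are found in 14.4% and 9.42% of all windows, and AGGTCA, also without a match, in 4607 of them. A match describes letters and no bound factor.

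Levels are fragments per kilobase of transcript, scaled to the mapped fragments of the library (FPKM), as deposited, and may be compared between genes because they are per length. The number of fragments behind each library was estimated from the steps between low FPKM values at 6559421, in the second NC siRNA#2 library, to 31621343, in the first Day0 library. The 8 genes rested on 6 to 59107 estimated fragments per library, with Tnc at the low end. The replicates of the non-treated group stood apart. They differed over 2-fold at 252 genes, against 7 to 21 in the other groups, and their difference followed the GC content of the transcripts with a rank correlation of 0.80 across genes, which are not independent replicates. That pattern reached the 8 genes. The 5 with a transcript GC content over 50% (Cspg5, Tnc, Ncan, Cspg4 and Bcan) were all higher in replicate 1, and the 3 under it (Vcan, Ptprz1 and Tnr) were all higher in replicate 2. The level of Bcan was 26.5 times that of Vcan in replicate 1 and 9.43 times in replicate 2. Results that involve the non-treated group were therefore set beside those of the mock group. Each gene had 1 variance over all fitted groups, so this spread also entered the SE and p of comparisons without the non-treated group. For Cspg5 in siSbp2l against mock, the limma adjusted p was 0.1092 and ran from 0.0003424 to 0.1662 over alternative settings. For Bcan in siSbp2l against NC siRNA#2 it was 0.3622 and ran from 0.008269 to 0.5756. With bulk RNA, fewer cells of a type and less RNA per cell cannot be told apart.

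The label of the cells was checked with the targeted genes and with markers. Against the mean of the 4 Day3 controls, Secisbp2l was lower in siSbp2l by a log2 change of -5.21 (SE 0.11, limma adjusted p = 6.116e-09), and Pdgfra was lower in siPdgfra by -3.68 (SE 0.08, limma adjusted p = 6.482e-09). All 10 OL markers tested rose from Day0 to the non-treated Day3 group, Mag by 7.99 and Mbp by 7.13 on the log2 scale. Of 11 OPC markers other than the genes described here, 3 rose and 4 fell in that comparison, with a median log2 change of 0.44. Olig1, the OPC list's most abundant gene, stood at 988 FPKM at Day0 and at 286 to 410 FPKM in the 4 Day3 controls. Markers of other cells were present in part. Gfap, an astrocyte marker, had 0.716 FPKM at Day0 and 37.8 to 76.5 FPKM in the Day3 controls, and the neuronal tubulin Tubb3 had 23.7 FPKM at Day0 and 66.1 to 270.0 FPKM in the controls. Their lists did not rise as a whole. From Day0 to the non-treated group, 2 of 7 astrocyte markers tested rose and 1 fell, with a median log2 change of 0.78. Of 5 neuron markers tested, 1 rose and 2 fell, with a median of -0.84. Summed over their lists, microglia markers reached at most 10.4 FPKM, endothelial and pericyte markers at most 1.95 FPKM and fibroblast markers at most 0.190 FPKM in any library. The highest gene of each was P2ry12 at 9.12 FPKM and Kdr at 1.67 FPKM, both in NC siRNA#1, and Dcn at 0.143 FPKM in the same group.

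The first question was how the genes moved during differentiation. Of the 8 genes, 4 fell at least 2-fold between Day0 and the non-treated Day3 group (Cspg4, Cspg5, Ptprz1 and Tnc), Bcan and Tnr rose, and Ncan and Vcan did not pass. A gene was called where it differed at least 2-fold on the log2(FPKM + 1) scale with a Benjamini-Hochberg adjusted p under 0.05 over all genes tested. The same 6 genes were called in the same direction between Day0 and the mock group. These 6 of 8 genes stood against 26.6% of all genes tested in the non-treated comparison and 26.2% in the mock comparison. Without Tnc, which could pass the filter on low values only through Day0, they were 5 of 7 in both comparisons. The median log2 change of the 8 was -0.88 in the non-treated group, where that of all genes tested was -0.12. Both comparisons share the Day0 libraries.

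**Figure D1:**
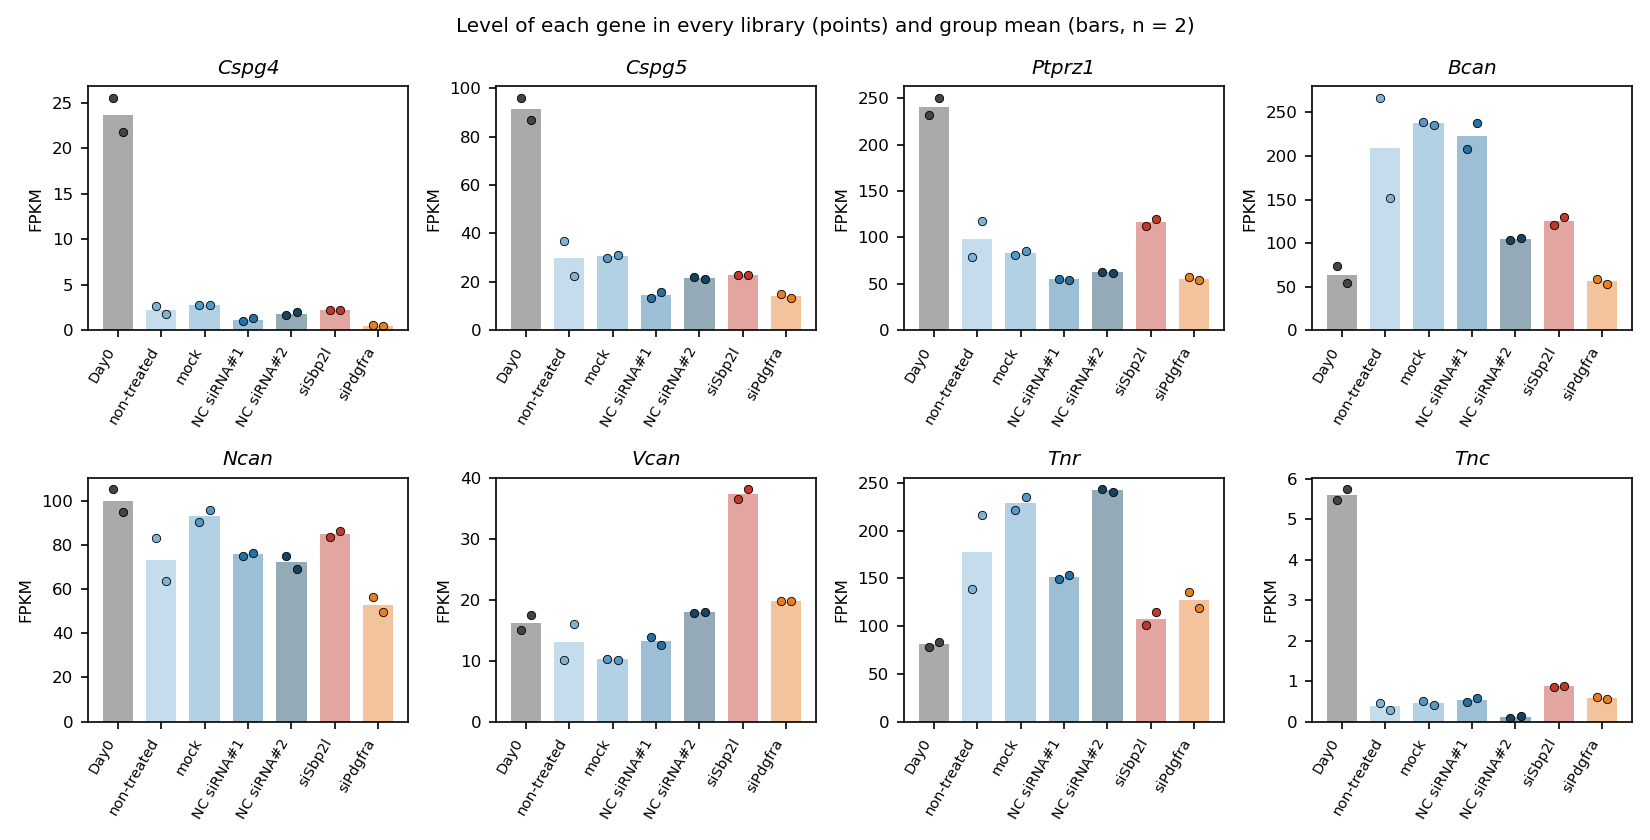
FPKM of the 8 genes on the vertical axes, each from 0 on its own scale, in the 7 groups on the horizontal axes, with points for the 2 libraries of a group and bars for their mean. Day0 stands far above the other groups for Cspg4, Cspg5, Ptprz1 and Tnc, siSbp2l stands above them for Vcan, and siPdgfra is lowest for Cspg4, Cspg5, Bcan and Ncan by its mean.

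Cspg4 had 25.6 and 21.8 FPKM in the Day0 libraries. In the 8 control libraries at Day3 it ranged from 0.958 to 2.81 FPKM with a median of 1.88. Day0 and Day3 did not overlap, and the Day0 mean was 11.95 times the mean of the 4 control groups. The log2 change from Day0 was -2.94 in the non-treated group (SE 0.14, limma adjusted p = 1.026e-08) and -2.71 in the mock group (SE 0.14, limma adjusted p = 1.969e-08). Among the controls, the order ran from mock, with 2.72 and 2.81 FPKM, through the non-treated group, with 2.66 and 1.79 FPKM, and NC siRNA#2, with 1.65 and 1.97 FPKM, to NC siRNA#1, with 0.958 and 1.30 FPKM. The non-treated and NC siRNA#2 ranges overlapped, and the siRNA controls differed by 0.40 on the log2 scale without passing (limma adjusted p = 0.07085).

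Cspg5 followed Cspg4 at a higher level. It had 96.1 and 87.0 FPKM at Day0, 37.1 and 22.5 FPKM in the non-treated group and 30.0 and 31.0 FPKM in the mock group. The log2 change from Day0 was -1.63 in the non-treated group (SE 0.18, limma adjusted p = 1.031e-05) and -1.55 in the mock group (limma adjusted p = 1.538e-05). Over the 14 libraries the log2 levels of Cspg4 and Cspg5 had a Pearson correlation of 0.97, the highest of any pair among the 8 genes, and within the 12 Day3 libraries it was 0.91. These correlations are descriptions over libraries that share their groups, and they carry no test.

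Ptprz1 had the highest FPKM of the 8 genes at Day0, at 232 and 251. At Day3 it had 79.0 and 118 FPKM in the non-treated group, 80.7 and 85.1 FPKM in the mock group, 55.3 and 54.0 FPKM with NC siRNA#1 and 62.8 and 61.8 FPKM with NC siRNA#2. No Day3 library reached the Day0 range. The log2 change was -1.31 in the non-treated group (SE 0.15, limma adjusted p = 1.446e-05) and -1.53 in the mock group (limma adjusted p = 4.085e-06).

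The lecticans did not move as one group. Bcan had 73.2 and 53.9 FPKM at Day0, and it had 267 and 151 FPKM in the non-treated group, 239 and 236 FPKM in the mock group and 208 and 238 FPKM with NC siRNA#1. It rose by a log2 change of 1.66 in the non-treated group (SE 0.22, limma adjusted p = 4.583e-05) and of 1.90 in the mock group (SE 0.22, limma adjusted p = 1.56e-05). With NC siRNA#2 it had 104 and 105 FPKM, above both Day0 libraries and below every library of the other 3 controls, and its log2 change from Day0 of 0.73 was under 2-fold (limma adjusted p = 0.0122). Brevican is a major lectican of the adult brain, made by astrocytes, by OPCs and by maturing OLs.

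Ncan had 105 and 94.9 FPKM at Day0 and from 63.7 to 96.0 FPKM in the 8 control libraries. The non-treated log2 change was -0.45 (limma adjusted p = 0.007374), under 2-fold, and the mock change was -0.10 (limma adjusted p = 0.5017). Vcan had 15.0 and 17.5 FPKM at Day0 and from 10.1 to 18.0 FPKM in the control libraries. Its log2 change was -0.33 in the non-treated group (limma adjusted p = 0.09621) and -0.62 in the mock group (limma adjusted p = 0.005722). The non-treated value rested on single libraries, at -0.02 without the first non-treated library (limma adjusted p = 0.8889) and -0.635 without the second, and the mock value lost its adjusted p, at up to 0.05178, with 1 library left out. For Ncan in the non-treated group the change ran from -0.64 to -0.26 and the limma adjusted p up to 0.06141 over the libraries left out. Neurocan is known mainly from developing neurons and glia, and versican is the lectican also found outside the brain.

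The makeup of the lectican messages changed with these levels. At Day0 Ncan made up 55.7% of the summed lectican FPKM, Bcan 35.1% and Vcan 9.15%. In the mock group Bcan made up 69.7%, Ncan 27.4% and Vcan 3.01%, and the summed level went from 179.9 to 341 FPKM. Bcan made up 65.5% to 74.1% in the 6 libraries of the non-treated, mock and NC siRNA#1 groups and 52.8% and 54.7% in those of NC siRNA#2, against 37.8% and 32.4% at Day0. These shares are descriptions of the same FPKM values and were not tested. As comparisons between genes they carry the GC limit given above. The sums left out Acan, also a lectican gene.

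**Figure D2:**
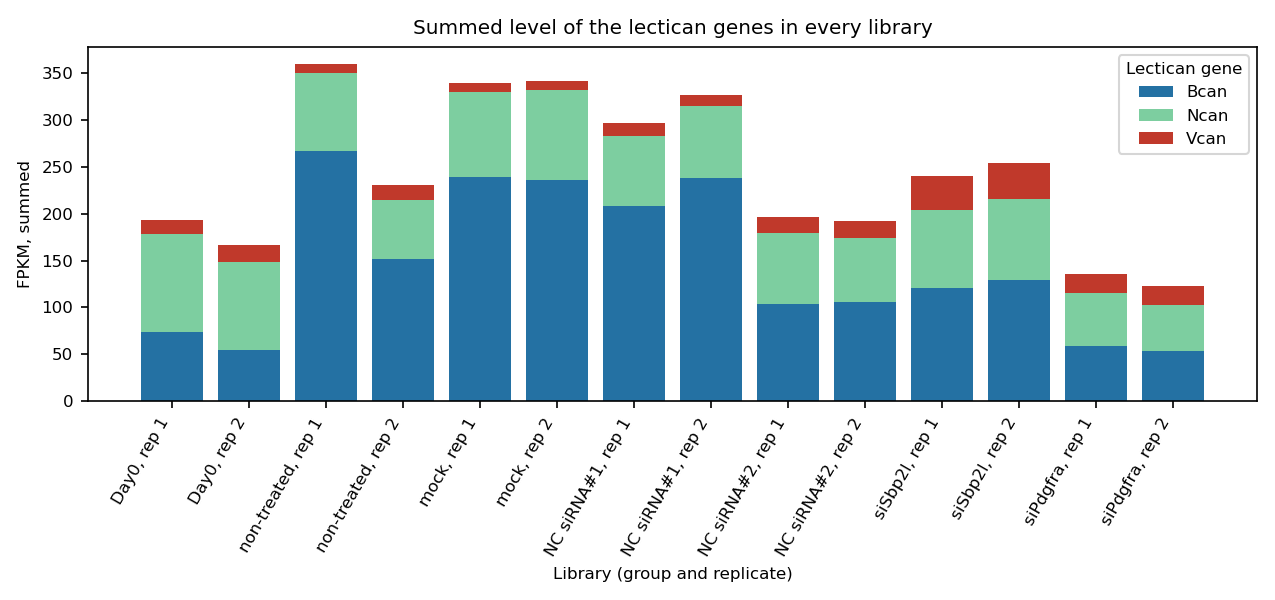
Summed FPKM of Bcan, Ncan and Vcan on the vertical axis, from 0, in each of the 14 libraries on the horizontal axis. Bcan fills most of the sum in the non-treated, mock and NC siRNA#1 libraries, and the siPdgfra libraries have the lowest sums, 135 and 123 FPKM.

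The tenascins moved in opposite directions. Tnr had 78.3 and 83.7 FPKM at Day0 and from 139 to 243 FPKM in the 8 control libraries, which did not overlap with Day0. It rose by a log2 change of 1.09 in the non-treated group (SE 0.17, limma adjusted p = 0.0001568) and of 1.49 in the mock group (SE 0.17, limma adjusted p = 1.367e-05). Without the second non-treated library the first of these was 0.77 (limma adjusted p = 2.756e-05), under 2-fold. Tnc had 5.47 and 5.75 FPKM at Day0 and from 0.0914 to 0.584 FPKM in the control libraries. Its log2 change in the non-treated group was -2.26 (limma adjusted p = 1.925e-09), and -0.98 with a pseudocount of 5. Tnc was under 1 FPKM in every Day3 library and passed the filter on low values only through Day0, so its call was bound to be a difference from Day0. The Day0 values rested on 1229 and 918 estimated fragments and those of NC siRNA#2 on 12 and 6. Tnc also shares 176 exon bases with a transcript on the opposite strand, and whether the counting used strand is not given in the sources used here. Over the 14 libraries, Tnr and Tnc had a correlation of -0.80 on the log2 scale, and over the 12 Day3 libraries one of -0.84.

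Knockdown of Sbp2l was compared with each of the 4 Day3 controls, and a gene was counted where it was called in the same direction against all of them. Vcan was the 1 gene of the 7 tested that was counted, and it was higher. Across all genes tested, 3.23% were counted in the same way. Set against the control mean, the 7 genes had a median log2 change of 0.12, and that of all genes tested was 0.15. Against the mean of the controls Ptprz1 was also higher and Tnr and Bcan were lower, all under 2-fold, and Cspg4, Cspg5 and Ncan lay within the range of the control libraries. The 4 comparisons share the siSbp2l libraries.

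Vcan had 36.6 and 38.2 FPKM in the siSbp2l libraries. It had 10.1 and 16.0 FPKM in the non-treated group, 10.3 and 10.2 FPKM in the mock group, 13.9 and 12.6 FPKM with NC siRNA#1 and 17.9 and 18.0 FPKM with NC siRNA#2. The siSbp2l libraries stood above every other library of the series, and their mean was 2.74 times that of the controls. The log2 change was 1.48 against the non-treated group (limma adjusted p = 6.22e-05) and 1.77 against the mock group (limma adjusted p = 2.478e-05). The siRNA controls gave 1.43 for NC siRNA#1 (limma adjusted p = 9.169e-05) and 1.02 for NC siRNA#2 (limma adjusted p = 0.0008624). The last of these was close to the 2-fold threshold. It was 0.91 with median-ratio scaling and 0.94 with upper-quartile scaling, under which the median of all genes in this comparison went from 0.10 to 0.0055 and 0.038, 0.88 with a pseudocount of 5, and 0.99 without the second siSbp2l library, and in each of these the count against all 4 controls was 0. Against the mean of the controls, Vcan changed by 1.42 (SE 0.13, limma adjusted p = 1.375e-05) and passed under all 22 alternatives, at 1.207 to 1.503.

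Tnr had 101 and 114 FPKM in the siSbp2l libraries, below all 8 control libraries and above both Day0 libraries. Its log2 change against the mean of the controls was -0.86 (SE 0.14, limma adjusted p = 0.0006413), and it was -1.02 with median-ratio scaling. Against the single controls it was -0.69 (non-treated), -1.08 (mock), -0.49 (NC siRNA#1) and -1.16 (NC siRNA#2), each with a limma adjusted p under 0.05 and 2-fold only against mock and NC siRNA#2. The difference from NC siRNA#1 lost its adjusted p whichever of the 4 libraries compared was left out (limma adjusted p from 0.07999 to 0.2144). That from the non-treated group was -0.37 without the second and -1.004 without the first non-treated library, and its limma adjusted p was 0.07371 without the first siSbp2l library. Without the first siSbp2l library the change against mock was -0.99. Tenascin-R is a product of differentiating OLs, and the summed level of the 10 OL markers was 2924 and 3140 FPKM in siSbp2l against 7239 to 10590 FPKM in the controls. The part of that difference in the level of Tnr was not tested.

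Ptprz1 had 112 and 120 FPKM in siSbp2l and from 54.0 to 118 FPKM in the controls. It overlapped with the second non-treated library and stood above the other 7. Its log2 change against the mean of the controls was 0.68 (SE 0.12, limma adjusted p = 0.001249), from 0.26 against the non-treated group (limma adjusted p = 0.1879) to 1.07 against NC siRNA#1 (limma adjusted p = 0.000396), the latter 0.90 with median-ratio scaling. Bcan had 120 and 129 FPKM in siSbp2l, between NC siRNA#2 and the other 3 controls. Its log2 change was -0.68 against the non-treated group, -0.92 against the mock group and -0.83 against NC siRNA#1, and it was 0.25 against NC siRNA#2 (limma adjusted p = 0.3622), so the direction depended on the control. The difference from the non-treated group was -1.09 without the second and -0.28 without the first non-treated library, and its limma adjusted p was 0.1068 without the first siSbp2l library. Against the mean of the controls Bcan changed by -0.55 (limma adjusted p = 0.01906, up to 0.1415 over the libraries left out).

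Cspg4 had 2.24 and 2.26 FPKM in siSbp2l, within the control range, with a log2 change of 0.16 against the mean of the controls (SE 0.11, limma adjusted p = 0.2478). Cspg5 had 22.9 and 22.8 FPKM and a change of -0.01 (SE 0.15, limma adjusted p = 0.9757). Ncan had 83.8 and 86.5 FPKM and a change of 0.12 (SE 0.10, limma adjusted p = 0.3226). A missed threshold does not show that these levels were equal. Tnc was not tested among the Day3 groups. It was listed at 0.861 and 0.889 FPKM in siSbp2l, from 124 and 137 estimated fragments, above the 0.584 FPKM of the highest control library. Pdgfra itself, the receptor by which the cells were captured, rose in siSbp2l by 1.54 on the log2 scale relative to the control mean and by at least 2-fold relative to each control.

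**Figure D3:**
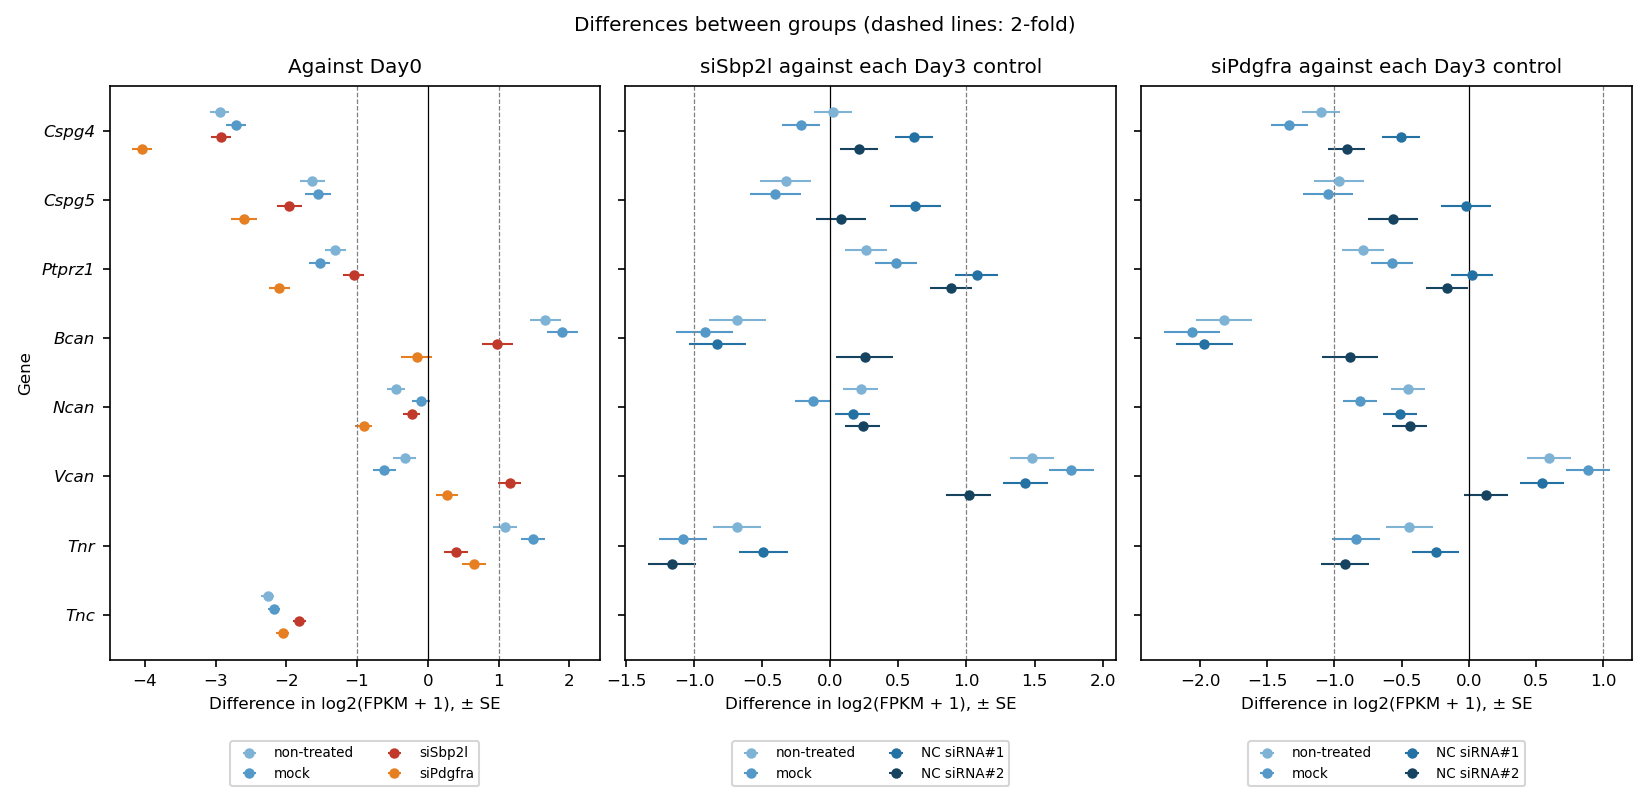
Differences in log2(FPKM + 1) with their standard errors on the horizontal axes, for the 8 genes on the vertical axis, against Day0 (left), and for siSbp2l (middle) and siPdgfra (right) against each Day3 control. Dashed lines mark a 2-fold difference, and Tnc is missing from the middle and right panels because it did not reach 1 FPKM at Day3. In the middle panel Vcan lies to the right of 1 for all 4 controls, and in the right panel Bcan lies to the left of -1 for 3 of them.

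In siPdgfra, Cspg4, Bcan and Ncan were lower than in every control, but none of the 7 genes tested passed the 2-fold threshold against all 4 controls by limma, where 3.61% of all genes tested did. Without the fold threshold these 3 of the 7 passed against all 4 controls, beside 22.4% of all genes tested in either direction, and with an unadjusted p under 0.05 against each control they were again 3, beside 27.4% of all genes tested. The smaller of these changes, of Ncan against 3 controls and of Cspg4 against NC siRNA#1, had limma adjusted p values of up to 0.1213 when 1 library was left out. Set against the control mean, the 7 genes had a median log2 change of -0.61, and that of all genes tested was 0.09. The summed level of all 8 genes was 310 and 345 FPKM in siPdgfra and from 516 to 697 FPKM in the control libraries.

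Bcan had 59.0 and 53.4 FPKM in the siPdgfra libraries and from 104 to 267 FPKM in the control libraries, with no overlap. These values overlapped with the Day0 range, and the log2 change from Day0 was -0.16 (SE 0.22, limma adjusted p = 0.5382). Against the mean of the controls it fell by 1.68 on the log2 scale (SE 0.17, limma adjusted p = 2.231e-05). The changes were -1.82 against the non-treated group, -2.06 against the mock group and -1.97 against NC siRNA#1, each called, and -0.89 against NC siRNA#2 (limma adjusted p = 0.006603), which was under 2-fold.

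Cspg4 had 0.540 and 0.448 FPKM in siPdgfra, the lowest of the series, from 93 and 72 estimated fragments, and the mean was 0.249 times that of the controls. On the log2(FPKM + 1) scale, which understates changes at such levels, the change against the mean of the controls was -0.96 (SE 0.11, limma adjusted p = 6.175e-05). It was called against the non-treated group at -1.10, or -0.90 and under 2-fold without the first non-treated library, and against the mock group at -1.34, while the siRNA controls gave -0.51 for NC siRNA#1 (limma adjusted p = 0.01425) and -0.91 for NC siRNA#2 (limma adjusted p = 0.0005642). With a pseudocount of 0.1 the change against the mean was -1.74 and Cspg4 was called against all 4 controls. NG2 and Pdgfra are the paired classical markers of OPCs.

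Ncan had 56.4 and 49.5 FPKM in siPdgfra, below all the other 12 libraries. Its log2 changes against the 4 controls ran from -0.81 (mock) to -0.44 (NC siRNA#2), and the change against the mean of the controls was -0.55 (SE 0.10, limma adjusted p = 0.001198). Cspg5 had 15.1 and 13.5 FPKM, within the range of NC siRNA#1, and its change was -1.05 relative to mock (limma adjusted p = 0.001457), or -0.97 without the second siPdgfra library, while it was -0.02 relative to NC siRNA#1 (limma adjusted p = 0.9425). Ptprz1 had 57.5 and 53.7 FPKM and likewise differed from the mock group by -0.57 (limma adjusted p = 0.01463) and from NC siRNA#1 by 0.02 (limma adjusted p = 0.9117).

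Vcan moved the other way and Tnr was lower. Vcan had 19.8 FPKM in both siPdgfra libraries, above all 8 control libraries, with a log2 change of 0.54 against the mean of the controls (SE 0.13, limma adjusted p = 0.005733) and of 0.13 against NC siRNA#2 (limma adjusted p = 0.5382). Tnr had 136 and 119 FPKM, below the 139 FPKM of the lowest control library, with a change of -0.61 against the mean of the controls (SE 0.14, limma adjusted p = 0.004441). With 1 library left out, the limma adjusted p of these mean changes reached 0.05031 for Vcan and 0.06643 for Tnr. Astrocyte markers moved in the same comparison. The summed level of the 10 astrocyte markers was 52.7 and 53.5 FPKM in siPdgfra and 109.9 to 185.6 FPKM in the controls, Gfap and Aldoc were called lower against all 4 controls, and Aqp4 was under 1 FPKM throughout. Bcan and Ncan are also made by astrocytes, and the part of these cells in their fall was not tested.

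In the direct comparison, 3 of the 7 genes were higher in siSbp2l than in siPdgfra, against 13.7% of all genes tested that were called in either direction. Cspg4 was higher by a log2 difference of 1.12 (SE 0.14, limma adjusted p = 0.0001082), Ptprz1 by 1.05 (SE 0.16, limma adjusted p = 0.0003317) and Bcan by 1.14 (SE 0.21, limma adjusted p = 0.001275). The Ptprz1 difference was 0.96 with median-ratio scaling and 0.9991 without the second siSbp2l library, both under 2-fold. Vcan at 0.89, Ncan at 0.68 and Cspg5 at 0.64 had limma adjusted p values of 0.001316, 0.001464 and 0.01549 and were under 2-fold, and Tnr did not pass at -0.24 (limma adjusted p = 0.2773). The share of Vcan in the lectican sum, not tested, was similar in both knockdowns, 15.2% and 15.0% in the siSbp2l libraries and 14.6% and 16.1% in those of siPdgfra, against 2.80% to 9.36% in the controls. Lineage markers differed in the same comparison. Of 7 astrocyte markers 5 were called higher in siSbp2l than in siPdgfra, with a median of 1.14, and of 10 OL markers 4 were called lower, with a median of -0.90, and their part in these differences was not tested. The sums behind the Vcan shares were unlike, 241 and 254 FPKM in siSbp2l and 135 and 123 FPKM in siPdgfra.

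The non-targeting siRNAs gave the spread between transfections without a target. Against mock, Cspg5 was called lower with NC siRNA#1 (log2 change -1.03, limma adjusted p = 0.003693). Bcan was called lower than mock with NC siRNA#2 (-1.18, limma adjusted p = 0.004947). Cspg5 and Bcan were each the 1 gene of 7 called in that comparison with mock. The share of all genes tested that was called against mock is not given here. Under 2-fold but with a limma adjusted p under 0.05, Cspg4 (-0.83), Ptprz1 (-0.59) and Tnr (-0.59) were below mock with NC siRNA#1. Vcan was above mock by 0.75 with NC siRNA#2 (limma adjusted p = 0.01327). Bcan was lower with NC siRNA#2 than with NC siRNA#1 by a log2 change of -1.08 (SE 0.21, limma adjusted p = 0.004843), the 1 gene of 7 that was called, against 3.99% of all genes tested. Without the second NC siRNA#1 library the change was -0.98 and was no longer called. Tnr was higher by 0.67 (limma adjusted p = 0.02284), under 2-fold. The summed levels of markers of other cells also differed between these controls. The summed neuron markers were 271 and 278 FPKM with NC siRNA#1 and 121 and 129 FPKM with NC siRNA#2, and the summed microglia markers were 10.4 FPKM in both NC siRNA#1 libraries and 4.50 and 5.06 FPKM with NC siRNA#2. With NC siRNA#1 the neuron sum was mostly Tubb3 and the microglia sum mostly P2ry12. Of 4 neuron markers tested, 1 was called lower with NC siRNA#2 than with NC siRNA#1, and of 2 microglia markers tested, 1 was. The summed astrocyte markers were higher with NC siRNA#2, from 173.6 to 185.6 FPKM against 109.9 to 116.7 FPKM, but none of the 7 tested was called, with a median log2 change of 0.47. The summed OL markers were lower, from 7239 to 7575 FPKM against 10293 to 10590 FPKM, and 4 of the 10 were called lower, with a median log2 change of -0.77. Their part in the Bcan difference was not tested.

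Set against Day0, the knockdown cultures at Day3 kept the fall of Cspg4, Cspg5, Ptprz1 and Tnc. In siSbp2l these 4 genes were lower and Vcan was higher, 5 of 8 (4 of 7 without Tnc) against 22.8% of all genes tested. In siPdgfra the same 4 genes were lower and none was higher, 4 of 8 (3 of 7 without Tnc) against 27.7% of all genes tested. Cspg4 was lower than at Day0 by a log2 change of -2.92 in siSbp2l and of -4.04 in siPdgfra. The rise of Vcan over Day0 in siSbp2l was 1.16 (SE 0.16, limma adjusted p = 7.857e-05), and just under 2-fold, 0.9974, with a pseudocount of 5. The fall of Ptprz1 in siSbp2l, -1.05 (SE 0.15, limma adjusted p = 9.568e-05), was -0.99 without the second Day0 library, -0.9956 without the first siSbp2l library and -0.95 after removal of the GC trend, all under 2-fold. Bcan stood at 0.98 above Day0 in siSbp2l (limma adjusted p = 0.002293), or 1.20 without the first Day0 library, and at -0.16 in siPdgfra, and Tnr at 0.40 (limma adjusted p = 0.05418) and 0.65 (limma adjusted p = 0.005365). Both comparisons share the Day0 libraries.

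The genes that attach, cut and bind these proteins were then examined as lists. Of 22 genes for chondroitin sulfate chains, 18 were tested, and none was called against all 4 controls by limma in either knockdown, with 2 in siSbp2l and 5 in siPdgfra moving one way against every control at unadjusted p values under 0.05, the measure given beside each later count of none. By that measure 26.7% of all genes tested moved in siSbp2l and 27.4% in siPdgfra. Between Day0 and the non-treated group 3 rose and 3 fell. Xylt1, which starts the chain by adding xylose to the core protein, fell by 2.62 on the log2 scale from 50.5 FPKM, and the sulfotransferase Chst11 fell by 2.27. Ust, which adds sulfate to uronic acid, rose by 2.75. The median log2 change of the list was 0.03, and that of all genes tested was -0.12. In the knockdowns the list's medians against the mean of the controls were 0.17 for siSbp2l and 0.14 for siPdgfra, beside 0.15 and 0.09 for all genes.

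Hyaluronan is the sugar polymer to which lecticans attach. Of 12 genes for its synthesis, turnover and link proteins, 7 were tested, 3 rising and 2 falling from Day0 to the non-treated group, with Tmem2, a hyaluronidase of the cell surface, rising by 2.30. Has2, a hyaluronan synthase, was the 1 gene of the list called against all 4 controls in siSbp2l. It had 8.25 FPKM in siSbp2l, 0.964 to 2.99 FPKM in the control groups and 4.07 FPKM at Day0, and its log2 change against the mean of the controls was 1.55 (SE 0.12, limma adjusted p = 4.707e-06). The list's median was -0.45, of the opposite sign. In siPdgfra none of the 7 was called against all 4 controls by limma (0 at the unadjusted p), with a median of 0.27.

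Of 17 proteases that cut proteoglycans and their inhibitors, 11 were tested. From Day0 to the non-treated group 2 rose and 5 fell. Mmp15 fell by 3.47, Adamts1 by 2.79 and Adamts9 by 2.70 on the log2 scale, and the inhibitor Timp2 rose by 3.31. In siSbp2l, Adamts1, which cleaves lecticans, was called higher against all 4 controls with 58.3 FPKM against 11.8 to 18.9 FPKM in the control groups (log2 change against their mean 1.91, SE 0.07, limma adjusted p = 6.939e-08), and Mmp15 was called higher with a change of 1.30. In siPdgfra, Adamts9, which cleaves versican among other substrates, was the 1 gene called, with 9.14 FPKM against 1.57 to 2.12 FPKM in the control groups (log2 change 1.89). All 3 of these genes stood below their Day0 means of 87.8, 163 and 16.4 FPKM. The list's median was -0.14 between Day0 and the non-treated group, 0.26 in siSbp2l and -0.11 in siPdgfra.

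**Figure D4:**
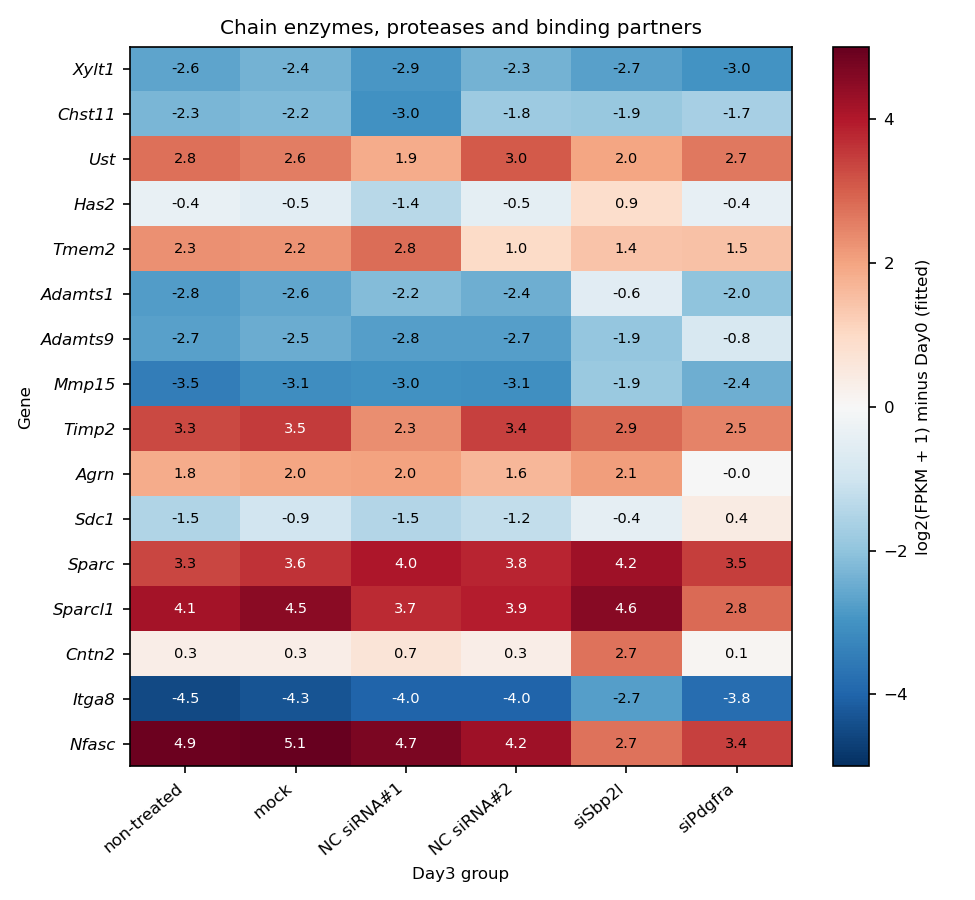
Fitted change in log2(FPKM + 1) from Day0, printed in each cell and coloured on a scale from -5 to 5, for 16 genes of chain synthesis, cleavage and binding (vertical axis) in the 6 Day3 groups (horizontal axis). Cntn2 and Has2 stand higher in siSbp2l than in every control, and Nfasc rose from Day0 in all 6 groups, least in siSbp2l.

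Of 25 ligands and receptors of the 8 proteins, 19 were tested, with 2 rising and 4 falling from Day0 to the non-treated group and a median of -0.10. Nfasc, the adhesion molecule of nodes and myelinating cells that binds brevican and tenascin-R at the node, rose by 4.92, and Itga8, an integrin chain that binds tenascin-C, fell by 4.52. In siSbp2l 2 genes of the list were called higher against all 4 controls and 1 lower. Cntn2, a contactin of axons and glia that binds phosphacan, had 6.18 FPKM in siSbp2l against 0.357 to 0.706 FPKM in the control groups (log2 change 2.32, SE 0.08, limma adjusted p = 6.939e-08). Itga8 changed by 1.47, and Nfasc was lower with 85.4 FPKM against 247 to 435 FPKM (log2 change -2.01, limma adjusted p = 8.357e-08). None of the 19 was called against all 4 controls in siPdgfra by limma (6 at the unadjusted p). The medians were 0.29 in siSbp2l and -0.15 in siPdgfra.

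Of 12 heparan sulfate proteoglycans, 10 were tested, with 1 rising and 2 falling from Day0 and a median of 0.04. In siPdgfra, Agrn (agrin) was called lower against all 4 controls, with 11.5 FPKM against 38.2 to 49.4 FPKM in the control groups (log2 change -1.88, limma adjusted p = 2.811e-06), a level close to the 11.6 FPKM of Day0. Sdc1 (syndecan-1) was called higher, with 19.9 FPKM against 4.62 to 7.20 FPKM (log2 change 1.69, limma adjusted p = 3.763e-06). In siSbp2l none of the 10 was called against all 4 controls by limma (3 at the unadjusted p), with medians of 0.24 in siSbp2l and -0.23 in siPdgfra. Of 14 other proteoglycans and tenascins only 4 were tested, 2 rising and 1 falling from Day0, with Sparcl1 (hevin) higher by 4.14 and Sparc higher by 3.32. None of the 4 was called against all 4 controls by limma in either knockdown (1 in siSbp2l and 2 in siPdgfra at the unadjusted p), and the list's medians were 1.53 from Day0, 0.33 in siSbp2l and -0.50 in siPdgfra.

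The lineage lists set the scale of these changes. In siSbp2l the OL markers called lower against all 4 controls included Mag, by a log2 change of -2.48, and Mbp, by -1.97, and the median over the 10 markers of the list was -1.56. Of 11 OPC markers, Pdgfra was called higher and Neu4 lower at -1.68, with a median of -0.08. In siPdgfra 1 OL marker was called lower, Mag at -2.38, with a median of -0.52. Of the OPC markers, Lhfpl3 was called lower at -2.01, and so was Pdgfra, the target of that siRNA. The median of the OPC markers, with Pdgfra among them, was -0.25. Of 7 astrocyte markers tested, Aldoc at -1.81 and Gfap at -1.47 were called lower in siPdgfra, and none was called in siSbp2l by limma (2 at the unadjusted p). Syt1 was the 1 of 4 neuron markers called, higher in siSbp2l at 1.72 and in siPdgfra at 1.64. Of the microglia markers 2, and of the endothelial and pericyte markers 1, reached the level needed for a test, and none of them was called against all 4 controls by limma in either knockdown (at the unadjusted p, 0 of the microglia markers and 1 of the others in each). None of the 6 fibroblast markers reached that level.

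The genes whose log2 levels ran most like those of each of the 8 were sought among 8618 genes over the 14 libraries, as a description with no test. Those nearest Cspg4 were Rfx4 (Pearson r = 0.99), Nt5dc2 (0.99) and 2610017I09Rik (0.99), and those nearest Cspg5 were Fndc4 (0.97), Rfx4 (0.97) and 2610017I09Rik (0.97), so 2 of the 3 were shared. Ptprz1 was nearest to Ptprg (0.99), the gene of the other phosphatase of the same receptor class, and then to Tspan12 and Ska2 (0.98 and 0.97). Bcan was nearest to Homer3, Cadm3 and Emc8 (0.97, 0.96 and 0.94) and Ncan to Tmem201, Zyx and Elfn1 (0.92 each). Vcan was nearest to Rin2, Dennd4c and Mll3 (0.96, 0.95 and 0.94), and Rin2 had 16.8 FPKM at Day0 and 40.5 FPKM in siSbp2l. Tnr was nearest to Mtap1b, Rragd and Kcnj10 (0.96, 0.96 and 0.94). Tnc was nearest to Ipo5, Dut and Pold3 (0.99 each), of which Dut and Pold3 act in nucleotide supply and DNA replication. Because Tnc was high only at Day0, its correlations mostly describe Day0 against Day3. With Cspg4, for example, Tnc had 0.89 over the 14 libraries and -0.07 over the 12 Day3 libraries. The 14 libraries share 7 groups, so they are not independent points.

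On the genome (mm10), Cspg4 lies on chromosome 9 from 56865104 to 56899870 and Cspg5 on the same chromosome from 110243783 to 110262576, both on the plus strand. Ptprz1 lies on chromosome 6 from 22875502 to 23052916 and Tnr on chromosome 1 from 159523769 to 159924922, also on the plus strand. Bcan lies on chromosome 3 from 87987531 to 88000356, Ncan on chromosome 8 from 70093085 to 70120844, Vcan on chromosome 13 from 89655310 to 89742512 and Tnc on chromosome 4 from 63959785 to 64047015, on the minus strand. The values describe whole genes. Vcan has 5 transcripts in the annotation and Bcan and Cspg5 have 2 each, and their isoforms were not told apart.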

How the data were processed

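RNA was sequenced in 14 stranded, poly(A)-selected libraries. The authors mapped reads to mm10 and deposited 1 table of FPKM values per gene and library, and no count table was used here. Reads of a gene, divided by its length and the library's depth, give FPKM, so a few very abundant messages lower all other values of a library.

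Groups were taken from the sample labels. Differences were tested with limma 3.58.1 (R 4.3.3, trended and robust variances) on log2(FPKM + 1), keeping genes that reached 1 FPKM in 2 or more of the fitted libraries. This left 11650 genes over the 12 Day3 libraries and 11874 over all 14. A call needed a 2-fold change and a Benjamini-Hochberg adjusted p under 0.05 over all genes tested. Counts over 4 controls required the call against each. Depth was estimated from the steps between low FPKM values, which came out within 0.1 of a whole number of fragments for 88.81% to 92.62% of low values of single-transcript genes; intervals were not derived from it. The limma fit and its calls were tested on simulated data for the comparison of siSbp2l with the mean of the controls. With 2 replicates per group, p-values measure the spread between these libraries. Named genes were the 8 genes, both siRNA targets, at most 4 called genes of each list and comparison by size, the most abundant gene of each marker list and the 3 genes nearest each of the 8. Of these, 1 marker gene is not reported here. The genes, lists and tests were chosen with earlier results of these data known. Alternatives were other pseudocounts, filters, scalings, a fit without the trend, a replicate block and leaving out each library.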

Additional observations from a re-analysis of the deposited data

How the results depend on the processing

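The 132 changes of single genes were recomputed under 12 other settings and without each of the 14 libraries. Of 2149 values, 2032 kept direction and side of the threshold, 26 lost the call, 70 gained it and 21 changed sign. The counts of called genes that moved were these. For siSbp2l against all 4 controls the count of 1 became 0 with a pseudocount of 5, with median-ratio scaling and with upper-quartile scaling, and 2 with no fold threshold, and it ran from 0 to 1 over the libraries left out, at 0 without the second siSbp2l library. For siPdgfra against all 4 controls the count of 0 became 1 with a pseudocount of 0.1 and 3 with no fold threshold. Between siSbp2l and Day0 the count of 5 became 3 with a pseudocount of 5, and it ran from 3 to 5 over the libraries left out, at 3 without the second Day0 library. Between siSbp2l and siPdgfra the count of 3 became 6 with no fold threshold. Between the non-targeting siRNAs the count of 1 became 2 with no fold threshold, and it ran from 0 to 1 over the libraries left out, at 0 without the second NC siRNA#1 library. The comparisons with Day0 of the non-treated group, the mock group and siPdgfra stayed within 1.5 times of their counts under every alternative.

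The changes of sign were all in small changes, of at most 0.33 on the log2 scale as reported, and none of the reversed values had an adjusted p under 0.2039. With median-ratio scaling they were Ncan -0.04139 (siSbp2l, mean of the controls) and -0.008186 (siSbp2l, NC siRNA#1), Cspg4 -0.1217 (siSbp2l, non-treated), Cspg5 -0.02862 (siSbp2l, NC siRNA#2) and Ptprz1 -0.06375 (siPdgfra, NC siRNA#1). With upper-quartile scaling they were Ncan -0.0004123 (siSbp2l, mean of the controls), Cspg4 -0.09991 (siSbp2l, non-treated) and Ptprz1 -0.05827 (siPdgfra, NC siRNA#1). Cspg4 in siSbp2l against the non-treated group was -0.1408 after removal of the GC trend, a setting chosen after seeing the data, and -0.1726 to 0.2189 over the libraries left out. Cspg5 in siSbp2l against the mean of the controls was 0.1006 without the non-treated group and -0.0932 to 0.08116 over the libraries left out. Over the same omissions, Cspg5 in siSbp2l against the non-treated group ran from -0.6747 to 0.02275, Ptprz1 in that comparison from -0.02534 to 0.551, Bcan in siPdgfra against Day0 from -0.3762 to 0.0578, Cspg5 in siPdgfra against NC siRNA#1 from -0.1265 to 0.09118, and Ptprz1 in that comparison from -0.02622 to 0.07187. The cause was not tested.

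With the replicate block the counts were 6, 6, 1, 0, 3, 1, 5 and 4, in the order non-treated and mock against Day0, siSbp2l and siPdgfra against all 4 controls, siSbp2l against siPdgfra, NC siRNA#2 against NC siRNA#1, and siSbp2l and siPdgfra against Day0, none of them changed. Deviations of same-numbered libraries correlated at -0.38 to 0.473 between groups and over 0.1 in 4 of 21 pairs of groups, so the numbers were not taken to pair the libraries. Groups of 2 limit the precision, as do the few fragments behind Tnc at Day3.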
